A study of Mus musculus with 12 samples.

Results

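Irbesartan, a drug that blocks the angiotensin type 1 receptor and is used against high blood pressure, was set against vehicle on 4 of the 12 arrays of this series. The arrays were chosen by their label alone, and all 4 were used. The other 8 arrays set pioglitazone (4 arrays) and telmisartan (4 arrays) against vehicle. Each array carried RNA of drug-treated cells in 1 channel and RNA of vehicle-treated cells in the other, and each side was a pool of RNA from 3 cell cultures, per the labels. The species was mouse. The cell type, the dose, the time of treatment and any genetic background are not given in the sources used here, so the drug and its dose cannot be told apart. The labels also leave unsaid whether the 4 arrays shared a single pair of RNA pools, and p-values therefore measure the spread between arrays, which may be wholly technical.

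PPAR-gamma is a nuclear receptor that pairs with RXR on DNA and switches on genes for the uptake, storage and burning of fatty acids; in fat cells it is the central regulator. Thiazolidinediones such as pioglitazone bind and activate it. The series title describes a class of angiotensin receptor blockers that activate PPAR-gamma, and the irbesartan arrays show which genes such a blocker changed. Irbesartan and telmisartan share a biphenyl group, which carries a tetrazole ring in irbesartan and a carboxylic acid in telmisartan.

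Values are log2 ratios of drug over vehicle, so 1 stands for a doubling and 0 for no difference. They compare a gene with itself and give no level of one gene against another. Which channel stood above the deposited ratio is not stated. Channel 2 was taken as likely because it places 19 of 25 known PPAR-gamma targets above 0 on the pioglitazone arrays. Of the 16 targets at least 1.5-fold from 0 there, 13 were above and 3 below. The list of targets was chosen with earlier results of these data known, so it is not an independent check of the direction. Every sign given here would turn under the other reading. The 4 irbesartan arrays held values on 20188 to 20721 of 22393 spots, against 17877 to 20721 over all 12 arrays. Channel order showed in the data: the 2 arrays with irbesartan in channel 1 correlated at 0.711 across features, those with irbesartan in channel 2 at 0.747, and the array pair 1 and 2, of opposite order, at 0.335. A dye term in the fit, shared by all drugs, took up the part of this that was common to them. On the arrays with the drug in channel 1, arrays 1 and 3, Fabp4 and 7 other genes (Aldoa, Ankrd26, Cidec, Lars2, Lpl, Tbc1d14 and Terf2ip) had the same ratio within 0.0015 on the log10 scale. Their values on those arrays cannot be told apart.

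Of 16390 features (spots or sets of repeat spots with a gene symbol, for 15319 genes), 4959 (30.3%) passed an adjusted p of 0.05 in limma's moderated test. Of these, 2299 were higher under irbesartan (14.0%) and 2660 lower (16.2%). Most changes were small: 293 features (1.79%) differed at least 1.5-fold, 109 upwards (0.665%) and 184 downwards (1.12%), and 25 differed at least 2-fold. Among the 4922 past the threshold with values on all 4 arrays, 4106 had 1 sign on every array, as did all 288 of those at 1.5-fold or more. The median over all features was 0.00, and their 5th and 95th percentiles were -0.32 and 0.29. Counted by gene, 14.6% of the 15319 genes were higher and 16.7% lower, with 0.698% and 1.16% at 1.5-fold or more, and these shares stand as the background for every gene list that follows. Without a dye term 3140 features passed, and 2442 passed when the 4 irbesartan arrays were fitted alone without one.

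Elovl3, an enzyme that lengthens very long-chain fatty acids and is abundant in brown fat, rose most. The 15 largest rises and falls were taken among genes past the threshold with values of 1 sign on all 4 arrays, which leaves out genes such as Ddc (-1.52) and Spata16 (2.05), each with values on 3 arrays that spread widely. The log2 ratios of Elovl3 under irbesartan were 2.43, 2.58, 2.46 and 2.60 on arrays 1 to 4. Their mean was 2.52 ± 0.05, or 5.73-fold, with an adjusted p of 9.71e-10 in limma's test. All 4 values lay far above those of the next gene in that order. Each ± in this text is a standard error of the fit, which pools the arrays of all drugs and holds a dye term. It is not the spread of the 4 irbesartan arrays. For the matrix gene Comp this standard error was 0.07, and the standard deviation between the 4 irbesartan arrays was 0.41. Cycs, which encodes cytochrome c, the carrier of electrons to the last respiratory complex, had ratios of 1.04, 1.46, 1.05 and 1.49, and a separate spot for it averaged 1.23 against 1.26 for the first. Olr1, a receptor for oxidised lipoprotein and a known PPAR-gamma target in fat, stood at 1.16, 1.36, 1.23 and 1.18. The rises also took in Aldh1a7, an aldehyde dehydrogenase (1.14 ± 0.02), Arxes1, an adipocyte gene of the endoplasmic reticulum (1.33 ± 0.10), Krt23, a keratin (1.25 ± 0.09), and Cbr3, a carbonyl reductase (0.94 ± 0.04). Ero1a, the oxidase that drives disulphide bonding in the endoplasmic reticulum, rose by 1.05 ± 0.04. Idh3a, the catalytic subunit of the citrate cycle's isocitrate dehydrogenase, had ratios of 0.72, 1.20, 0.72 and 1.28 and a mean of 0.98. Idi1, of the cholesterol pathway, averaged 0.91. These 15 rises were completed by 4931406C07Rik, Ms4a4d, St3gal6, Bhlhb9 and Stambpl1, at 0.90 to 1.26.

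Among genes with values of 1 sign on all 4 arrays, the deepest fall was that of Camp, the precursor of the antimicrobial peptide cathelicidin, with ratios of -1.27, -1.48, -1.50 and -1.56 and a mean of -1.45 ± 0.12, 2.74-fold lower than in vehicle (adjusted p 4.87e-06, limma). Sertad4, a SERTA-domain protein, followed at -1.34 ± 0.03, and Cyp2f2, a cytochrome P450, at -1.24 ± 0.03. Several of these 15 falls were matrix genes. Dcn, the collagen-binding proteoglycan decorin, had ratios of -1.07, -1.29, -1.02 and -1.28. Tgfbi, a matrix protein named for its induction by TGF-beta, stood at -1.02 ± 0.04, Comp, a cartilage matrix protein, at -1.02 ± 0.07, and Sparcl1, a SPARC relative, at -0.98 ± 0.03. Hp, the haemoglobin scavenger haptoglobin, averaged -1.08, and Sult1a1, a sulfotransferase, -1.02. Numa1, a spindle protein, averaged -1.20, but its ratios of -0.73 and -0.78 with irbesartan in channel 1 and of -1.67 and -1.62 with irbesartan in channel 2 differed by channel order, and a separate spot gave -0.25. The value of Abi3bp, a matrix gene at -1.08, was not matched by its other spot at 0.18 (adjusted p 0.0867, limma), nor that of Adcyap1r1, a neuropeptide receptor at -1.26, by its other spot at -0.02.

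**Figure D1:**
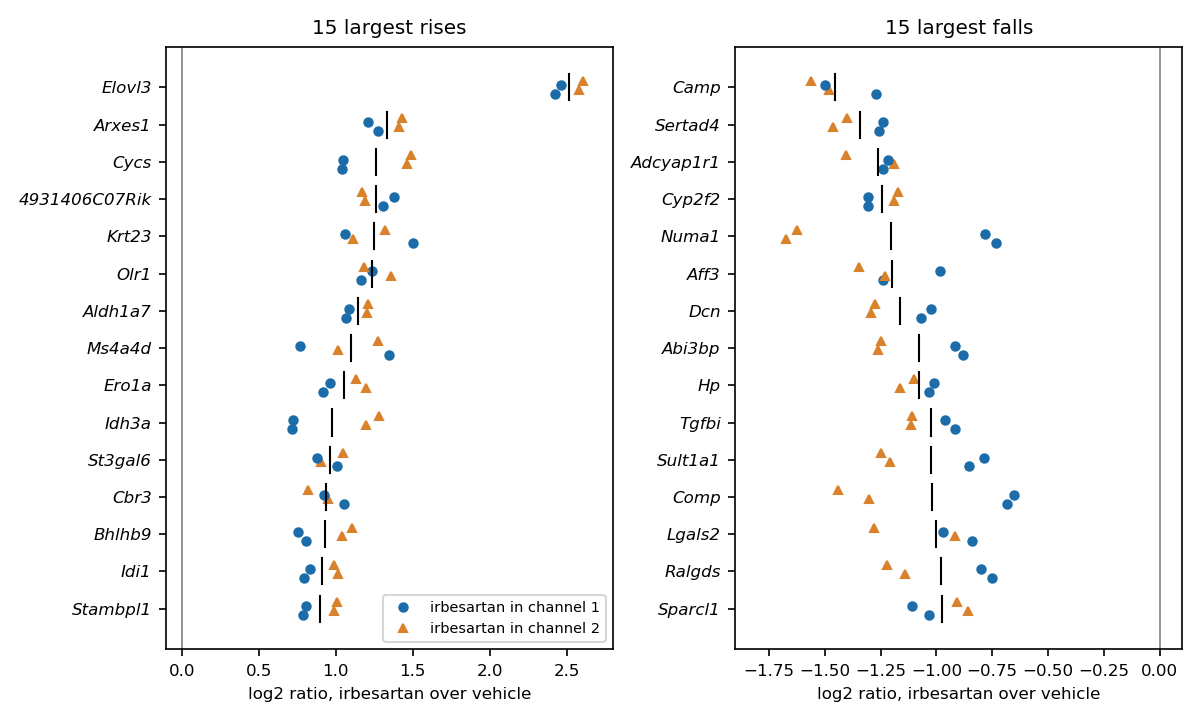
The 15 genes with the largest rises (left) and the 15 with the largest falls (right) under irbesartan among those with values of 1 sign on all 4 arrays, with each array's log2 ratio of irbesartan over vehicle on the x axis, circles for irbesartan in channel 1, triangles for channel 2, and a bar at the fitted value. Elovl3 stands apart at 2.43 to 2.60, and Numa1 splits by channel order.

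Of 25 tested genes known as PPAR-gamma targets in fat, 14 rose, 5 fell and 6 did not pass, against background shares of 14.6% higher and 16.7% lower. Their median was 0.45, and 12 of the 14 rises were at least 1.5-fold. This list set the direction of the ratio on the pioglitazone arrays, so its direction is not independent evidence. Among those that rose, Cd36, the fatty acid translocase, had ratios of 0.51, 0.71, 0.60 and 0.71, and Fabp5, a fatty acid carrier, had ratios of 0.65, 0.95, 0.72 and 1.09. Aqp7, the channel through which fat cells release glycerol, stood at 0.81, 0.93, 0.80 and 0.99, with no array near 0. Pdk4, the kinase that turns off pyruvate dehydrogenase, averaged 0.86 ± 0.04, and Slc25a20, the carrier of acylcarnitines into mitochondria, 0.79 ± 0.03. Pck1 and Gpd1, which make the glycerol backbone of stored fat, rose by 0.70 ± 0.05 and 0.72 ± 0.03. Plin2, a coat protein of lipid droplets, rose by 0.61 ± 0.07, and Angptl4, a secreted inhibitor of lipoprotein lipase, by 0.66 ± 0.03.

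Some other classic targets were lower. The falls in the list numbered 3 rather than 5 when any single irbesartan array was left out. Pparg itself fell, with ratios of -0.62, -0.47, -0.61 and -0.45 and a mean of -0.54 ± 0.03 (adjusted p 1.25e-07, limma). Adiponectin (Adipoq) stood at -0.36, -0.31, -0.40 and -0.43 under irbesartan (adjusted p 0.00322, limma) and averaged -0.95 under pioglitazone. Lipoprotein lipase (Lpl), which frees fatty acids from circulating fat, averaged -0.42 ± 0.14 under irbesartan. The droplet protein gene Cidec averaged -0.43 ± 0.12 under irbesartan and -0.73 under pioglitazone. Both Lpl and Cidec carried the shared ratio on arrays 1 and 3. Both lost their call when any single irbesartan array was left out (adjusted p up to 0.131 for Lpl and 0.0874 for Cidec, limma). They kept it in the fits of the 4 irbesartan arrays alone. Fabp4, the fat cell fatty acid carrier, had ratios of -0.34 and -0.40 on arrays 1 and 3 and 0.20 on arrays 2 and 4, so its mean of -0.09 (adjusted p 0.726) averages opposite signs.

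**Figure D2:**
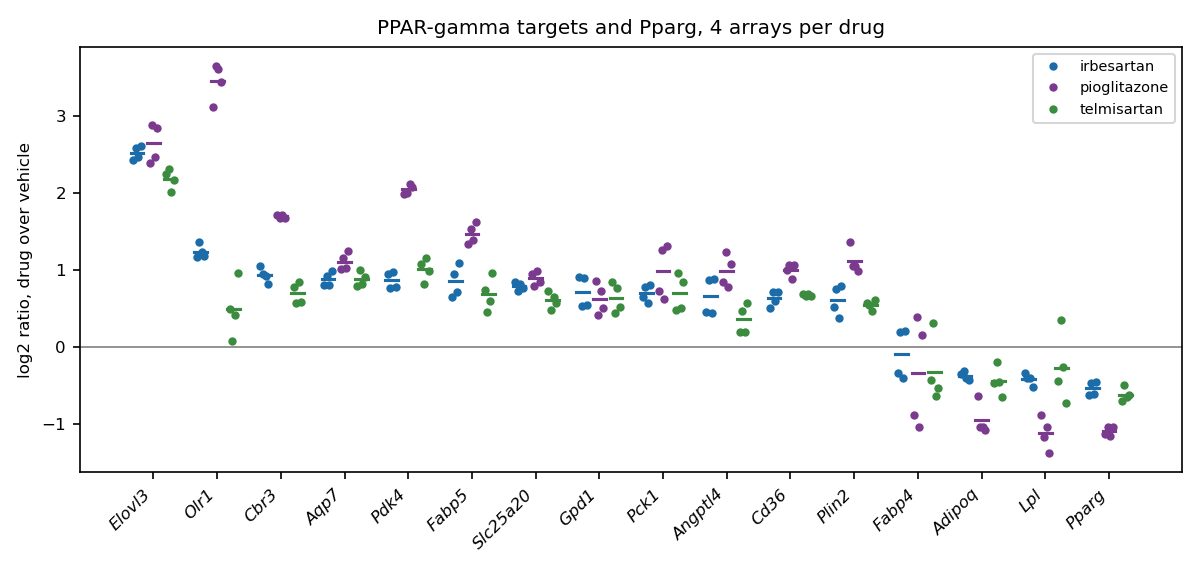
PPAR-gamma targets and Pparg on the x axis, with the log2 ratio of drug over vehicle on the y axis, a point for each of 4 arrays per drug and a bar at the mean, for irbesartan, pioglitazone and telmisartan. Irbesartan values of Aqp7, Cd36, Fabp5 and Pdk4 are above 0 on all 4 arrays, those of Pparg below 0, and those of Fabp4 on both sides.

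Among 30 regulators of fat cell formation, 12 fell and 5 rose. Klf3, a repressor of the Krüppel family, had ratios of -0.64, -1.12, -0.49 and -0.99. Klf4, an early factor of fat cell formation, fell by 0.51 on the log2 scale and Cebpd, which acts early as well, by 0.46, while Srebf1, a switch of fat synthesis, stood at -0.55 ± 0.04. Rxrg, a partner receptor of PPAR-gamma, rose by 0.44 ± 0.05, and the coactivators Ppargc1a and Ppargc1b, which drive mitochondrial genes, rose by 0.28 and 0.44. Cebpa, which works with PPAR-gamma to hold the fat cell state, rose by 0.20. In fits without a dye term on the 4 arrays alone, 7 rather than 12 of these regulators fell and 3 rather than 5 rose.

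Mitochondrial genes rose in most of the groups tested, by small amounts. Of 34 genes of respiratory complex I, which takes electrons from NADH, 33 rose and none fell, with a median of 0.23. Ndufab1, the carrier protein of that complex, rose most, at 0.67, 0.63, 0.78 and 0.70. Of 27 genes of complexes II to V with cytochrome c, 22 rose and 1, Cox6a1 (-0.33), fell. Uqcrfs1, the iron-sulphur protein of complex III, averaged 0.55, with 0.36 on both arrays with irbesartan in channel 1 against 0.78 and 0.69 on those with it in channel 2. The citrate cycle list had 16 of 21 higher and 1 lower, with a median of 0.33. Citrate synthase (Cs) stood at 0.89, 0.54, 0.84 and 0.50, and the pyruvate dehydrogenase subunits Pdha1 and Dld averaged 0.52 each. The single fall was that of Idh2, at -0.20.

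Of 23 genes that activate and burn fatty acids, 17 rose and none fell, with a median of 0.20. Hadhb, a subunit of the trifunctional enzyme of beta-oxidation, had ratios of 0.65, 0.66, 0.60 and 0.71, close together on all arrays. Decr1, needed to burn unsaturated fatty acids, averaged 0.56 and Etfdh, which passes electrons from beta-oxidation to the respiratory chain, 0.51. The machinery that builds mitochondria rose with them: 19 of 24 genes of protein import and its chaperones (median 0.25), among them Timm8a1 (0.67), Timm9 (0.64) and Timm23 (0.46), and 48 of 70 mitochondrial ribosomal protein genes (median 0.16), among them Mrpl55 (0.55). In the fit of the 4 arrays alone without a dye term, 16 complex I genes, 10 fatty acid oxidation genes, 11 import genes and 18 mitochondrial ribosomal protein genes were higher, and the median of each list kept its sign. Of 18 peroxisomal genes, 10 rose, led by the membrane assembly factor Pex16 (0.70), and 3 fell, among them Abcd2, a fatty acid transporter (-0.62, with another spot at -0.50). Of 16 genes that break down branched-chain amino acids, 5 rose and 2 fell, with a median of 0.04. In the fit of the 4 arrays alone without a dye term, 6 peroxisomal genes and 2 of the branched-chain genes were higher, and without irbesartan array 4 the branched-chain count was also 2.

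The cholesterol pathway rose almost as a whole: 19 of 21 genes were higher, 1 (Ebp, -0.09) was lower, and 6 were at least 1.5-fold higher, with a median of 0.47. Hmgcs1, which makes the HMG-CoA from which cholesterol is built, stood at 0.60, 0.62, 0.55 and 0.65. Insig1, a sensor that holds the sterol regulators in the endoplasmic reticulum, had ratios of 0.52, 0.83, 0.44 and 0.74. Lss, which closes the sterol rings, averaged 0.79 ± 0.04 and Nsdhl, a later enzyme, 0.64 ± 0.03, though a separate spot of Nsdhl gave 0.31. Dhcr7, the last enzyme of the pathway, averaged 0.59. The pathway's master regulator, Srebf2, rose by 0.21. The stretch from 250 bases before to 50 bases after the start of Hmgcs1 is given because it was the only 1 of 17 cholesterol genes with a promoter entry that held the sterol regulatory element searched for (TCACNCCAC on either strand). The sequence is RefSeq's (GRCm38.p6, chr13:119690101-119690400, + strand), and capitals mark the match, 137 bases before the start.
Hmgcs1: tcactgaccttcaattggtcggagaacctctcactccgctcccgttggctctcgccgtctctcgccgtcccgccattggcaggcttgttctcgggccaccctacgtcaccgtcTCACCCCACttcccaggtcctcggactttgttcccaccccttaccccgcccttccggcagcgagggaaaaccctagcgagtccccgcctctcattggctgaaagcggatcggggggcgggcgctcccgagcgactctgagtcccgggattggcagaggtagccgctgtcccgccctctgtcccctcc
Of all 32851 promoter windows in that table, 408 (1.24%) held this motif. The letters are a description of the window and show no binding.

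**Figure D3:**
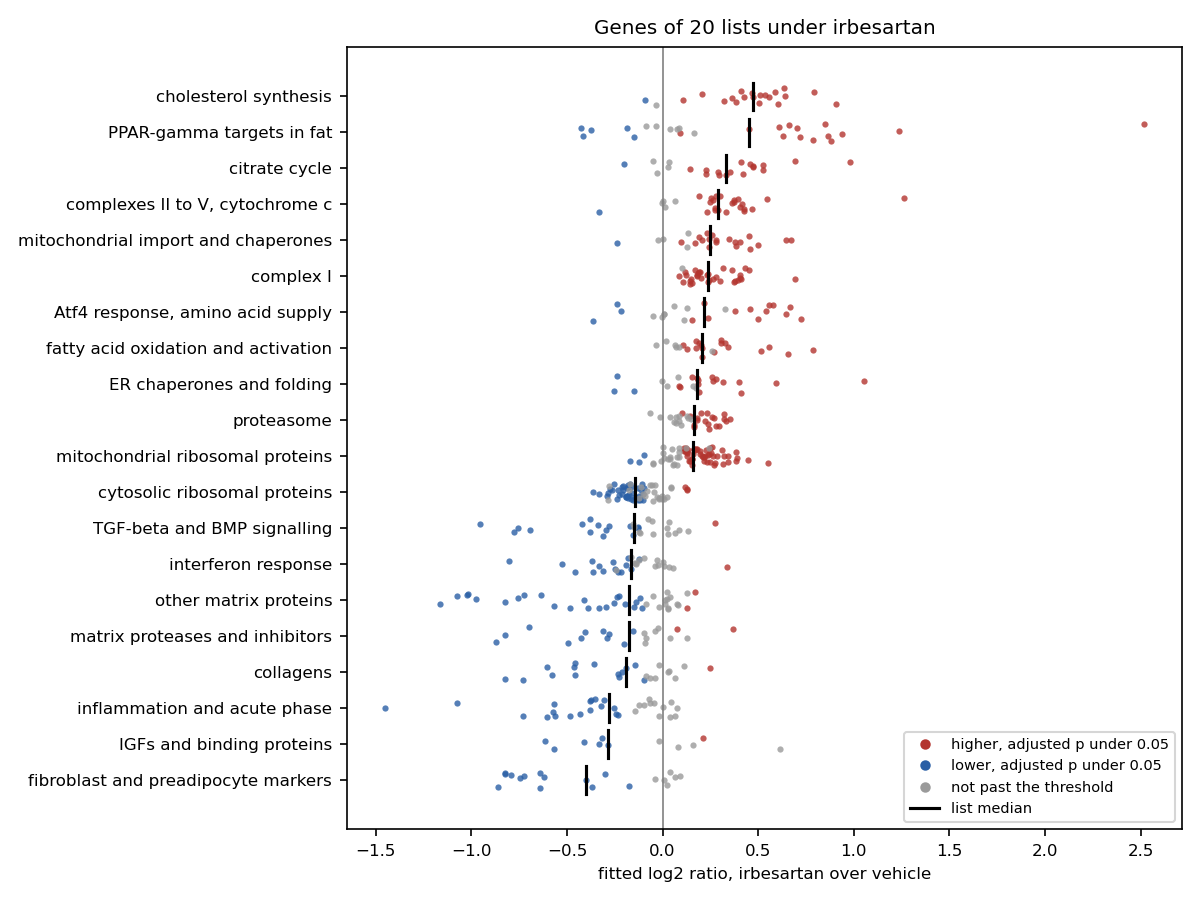
Fitted log2 ratios of irbesartan over vehicle (x axis) for the genes of 20 lists (rows), coloured by whether they were higher, lower or not past an adjusted p of 0.05, with a bar at each list's median. Cholesterol synthesis has its median at 0.47 and fibroblast markers at -0.40.

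Fat synthesis was mixed, with 13 of 23 genes higher and 5 lower. Among the rises, Mogat1, a monoacylglycerol acyltransferase, averaged 0.78, with 1.20 on array 4 against 0.60 to 0.69 on the others, and Agpat2, which makes phosphatidic acid, had ratios of 0.87 and 0.88 with irbesartan in channel 1 and of 0.43 and 0.37 with irbesartan in channel 2. Thrsp, a fat cell protein linked to fatty acid synthesis, fell, at -0.24, -0.42, -0.22 and -0.43. Fatty acid synthase (Fasn) stood at -0.01 and did not pass. Of 16 genes of fat breakdown and lipid droplets, 6 rose and 2 fell. Mgll, the lipase that splits monoglycerides, had ratios of 0.45, 0.38, 0.43 and 0.42, Abhd5, the coactivator of triglyceride lipase, averaged 0.52, and that lipase, Pnpla2, rose by 0.42.

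Glucose handling rose in part: 11 of 18 genes of glucose uptake and glycolysis were higher and 1 lower, with a median of 0.19. Pfkfb3, which makes the activator of the pathway's main control step, stood at 0.99, 0.72, 1.02 and 0.78. Slc16a1, a lactate transporter, rose by 0.57, Pgam1 by 0.47 (0.35 on another spot) and Ldha by 0.33. The fall of Aldoa, at -0.44, came from a spot with the shared ratio on arrays 1 and 3. Slc2a4, the insulin-responsive glucose transporter, stood at 0.07, 0.04, 0.03 and 0.00 and did not pass (adjusted p 0.42). The rises numbered 3 in the fit of the 4 arrays alone without a dye term. Of 21 insulin signalling genes, 2 rose and 6 fell, the deepest being Grb14, an inhibitor of the insulin receptor (-0.45 ± 0.05); without a dye term 3 fell.

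Folding and amino acid genes rose. Of 23 chaperone and folding genes of the endoplasmic reticulum, 15 were higher and 3 lower (median 0.18), with Ero1a above and Dnajb9, a co-chaperone, at 0.59 ± 0.04. Of 23 genes of the Atf4 response, which answers amino acid shortage and stress, 12 were higher and 3 lower (median 0.22). Asns, which makes asparagine, stood at 0.63, 0.68, 0.58 and 0.68, Mthfd2, of mitochondrial folate metabolism, averaged 0.73, and Aldh18a1, of proline synthesis, 0.67. Atf4 itself rose by 0.50. Of 31 proteasome genes, 19 were higher and none lower, at a median of 0.16 and at most 0.35 (Psmb3). Without a dye term 12 proteasome genes were higher, and 7 in the fit of the 4 arrays alone without one. Psmc5 was among the 19 with 0.71 and 0.68 with irbesartan in channel 1 but -0.10 on both other arrays, and its call was lost without a dye term. Cytosolic ribosomal protein genes moved down, 39 of 65 lower and 3 higher with a median of -0.14; in the fit of 4 arrays without a dye term 11 were lower.

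Of 43 cell cycle genes, 14 rose and 8 fell, with a median of 0.10. Cenpe, a kinetochore motor, had ratios of 0.84, 0.86, 0.74 and 0.97, but its other spot averaged 0.01 (adjusted p 0.953, limma), and Cenpa, the centromeric histone, averaged 0.73. Cdkn1b, an inhibitor of cell division, averaged -0.52 on 1 spot and -0.04 on another (adjusted p 0.468, limma), and Cdkn1a, a further inhibitor, rose by 0.46. Cyclin D1 (Ccnd1) fell by 0.37 and Pcna, the clamp of DNA copying, by 0.29. Without array 2 the rises numbered 9, and in the fit of the 4 arrays alone without a dye term the falls numbered 3.

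Fibroblast and preadipocyte markers fell most as a list: 13 of 19 were lower, none higher, and 9 of the falls were at least 1.5-fold, with a median of -0.40. In bulk RNA, fewer cells of a type and less RNA per cell cannot be told apart. Pdgfra, a growth factor receptor of mesenchymal precursors, stood at -0.92, -0.79, -0.88 and -0.86. Vimentin (Vim), the filament protein of mesenchymal cells, had -1.10 on both arrays with irbesartan in channel 1 and -0.54 and -0.55 on the others, below 0 on all. Fgf7 averaged -0.79, Gas6 -0.74 and S100a4 -0.73, and Dlk1, the preadipocyte inhibitor of fat cell formation, -0.64. The membrane markers Thy1 (0.04) and Dpp4 (0.01) did not pass.

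Matrix genes fell with them. Of 23 collagen genes, 14 were lower and 1, Col7a1 (0.25), higher, at a median of -0.19. Col1a2, a chain of the main fibrillar collagen, stood at -0.82, -0.80, -0.85 and -0.84, and Col3a1 at -0.81, -0.66, -0.86 and -0.60, and both sets lay well below 0. Col1a1 averaged -0.46. Of 38 other matrix genes, 23 fell and 2 rose (median -0.17), 9 of them by at least 1.5-fold. Fibronectin (Fn1), a cell-binding matrix protein, had ratios of -0.80, -0.85, -0.82 and -0.83, and Ogn, a small proteoglycan, -0.67, -0.82, -0.72 and -0.81. Of 20 matrix proteases and inhibitors, 11 fell and 2 rose: Adamts5, which cuts aggrecan, averaged -0.87, Mmp14, a membrane collagenase, -0.70, and Adamts1 -0.82. The contractile apparatus had 13 of 27 genes lower and 5 higher (median -0.10), with Myl9, a myosin light chain, at -0.70 ± 0.05, Zyx, a focal adhesion protein, at -0.68 ± 0.03, and Flna, which links actin filaments, at -0.52 on 1 spot and -0.04 on another (adjusted p 0.556, limma). In the fit of the 4 arrays alone without a dye term, none of the 27 was higher, and without irbesartan array 3 there were 2.

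Of 29 TGF-beta and BMP genes, 15 fell and 1, Id3 (0.27), rose, with a median of -0.15, and 8 fell in the fit of the 4 arrays alone without a dye term. Ltbp1, which holds latent TGF-beta in the matrix, had ratios of -1.05, -1.13, -0.70 and -0.95. Tgfbr2, a TGF-beta receptor, stood at -0.62, -0.88, -0.63 and -0.90, and Fst, an activin antagonist, averaged -0.69. The ligands Tgfb1 (-0.12) and Tgfb2 (0.03) did not pass, and Tgfb3 fell by 0.34. Of 11 genes of insulin-like growth factors and their binding proteins, 6 fell and 1, Igf1 (0.21), rose. Igfbp7 averaged -0.61, and Igf1r, the receptor, -0.41, where further spots gave -0.41 and -0.14. The falls in this list numbered 3 in the same fit of the 4 arrays.

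None of 30 genes of inflammation and the acute phase rose and 18 fell, with a median of -0.28. Below Camp and Hp came Cxcl10, an interferon-induced chemokine, whose ratios of -0.63, -0.43, -1.34 and -0.51 spread widely, and Saa3, an acute-phase protein with a value on 3 arrays (-0.62, -0.53 and -0.63). Vcam1, a leukocyte adhesion molecule, averaged -0.57. Ccl2, a monocyte chemokine, had ratios of -0.57 and -0.71 with irbesartan in channel 1 and of -0.24 and -0.22 otherwise, and Il6, an inflammatory cytokine, averaged -0.38. Tumour necrosis factor (Tnf) was at -0.02 and Il1b at 0.07; neither passed.

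Interferon-induced genes fell as well, 15 of 30 lower and 1, Usp18 (0.33), higher, with a median of -0.17. Ifit3, an antiviral protein, had ratios of -0.78, -0.95, -0.80 and -0.69 (mean -0.80 ± 0.06, adjusted p 1.98e-06, limma). Stat2, part of the complex that relays the interferon signal, stood at -0.32, -0.60, -0.29 and -0.62. Irf9, of the same complex, had ratios of -0.30, -0.41, -0.32 and -0.44 and averaged -0.37. Its call was lost when any single irbesartan array was left out (adjusted p up to 0.121, limma). The call held in the fits of the 4 irbesartan arrays alone. For Irf9 the shared spread took in telmisartan arrays with a standard deviation of 0.41, against 0.07 for the irbesartan arrays. Isg15, a ubiquitin-like protein, had 0.16 and 0.17 with irbesartan in channel 1 against -0.62 and -0.75 with irbesartan in channel 2, so its mean of -0.26 spans both signs, and its call was lost without a dye term. In the fit of the 4 arrays alone without a dye term, 9 interferon genes were lower.

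The windows of Ifit3 and Isg15 are printed because these genes had the largest differences between irbesartan and telmisartan among those past the threshold. They are RefSeq's, from 250 bases before to 50 bases after the gene's start (GRCm38.p6; Ifit3 at chr19:34583279-34583578, + strand; Isg15 at chr4:156200769-156201068, - strand, shown as transcribed). Capitals mark the core of the interferon-stimulated response element (GAAA, any 2 bases, then GAAA, on either strand), which appears 2 times in Ifit3, 156 and 122 bases before the start, and as 3 overlapping matches in Isg15, 78 to 66 bases before it.
Ifit3: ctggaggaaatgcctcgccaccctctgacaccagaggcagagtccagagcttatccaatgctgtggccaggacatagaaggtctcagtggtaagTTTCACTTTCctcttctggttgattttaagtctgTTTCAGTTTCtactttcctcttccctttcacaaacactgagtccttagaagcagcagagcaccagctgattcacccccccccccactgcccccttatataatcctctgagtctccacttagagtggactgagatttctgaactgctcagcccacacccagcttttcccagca
Isg15: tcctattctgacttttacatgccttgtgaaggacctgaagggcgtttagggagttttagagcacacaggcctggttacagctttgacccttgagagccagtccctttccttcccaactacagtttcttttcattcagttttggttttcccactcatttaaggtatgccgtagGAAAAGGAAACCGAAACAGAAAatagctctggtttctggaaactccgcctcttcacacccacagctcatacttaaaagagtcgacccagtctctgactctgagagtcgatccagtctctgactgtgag
The core was in 14 of the 24 tested interferon genes with a window, and in 1131 of 32851 windows overall (3.44%). Of those 14 genes, 9 were lower under irbesartan and 0 higher, against 15 lower and 1 higher among all 30 tested genes of the list. Whether the motif goes with the fall was not tested. A match describes the letters and is not evidence of a working site.

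The receptor that irbesartan blocks barely moved in expression: Agtr1a had ratios of -0.01, -0.03, 0.12 and -0.05 and a mean of 0.01 (95% interval -0.09 to 0.11, adjusted p 0.925), and its sign turned to -0.02 without array 3. Agtr2, the type 2 angiotensin receptor, fell, at -0.44, -0.72, -0.33 and -0.80 (adjusted p 0.000237). Angiotensinogen (Agt), the precursor of the hormone, had ratios of -0.07, -0.20, -0.07 and -0.12, and its mean of -0.11 passed at 0.00328 but not without a dye term. Of 11 tested genes of the renin-angiotensin system 4 fell and none rose, and 2 fell without a dye term; Ace stood at 0.20 and did not pass.

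Secreted fat cell factors were split, with 6 of 16 higher and 5 lower, and 3 each way in the fit of the 4 arrays alone without a dye term. Leptin (Lep) averaged 0.03 (adjusted p 0.461). Resistin (Retn), a hormone that thiazolidinediones lower in fat, had ratios of 0.04, 0.12, -0.01 and 0.20, a mean of 0.09 (adjusted p 0.0196), and lost its call in 6 alternatives, among them those without array 1, without array 4 and without a dye term. Hsd11b1, which activates glucocorticoids and is also lowered by thiazolidinediones, stood at -0.51, -0.55, -0.57 and -0.59.

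Of 12 macrophage markers, 2 fell and none rose. Endothelial markers had 3 higher and 2 lower of 16, and 3 of these 5 were at least 1.5-fold; where values on 3 of 4 arrays of every drug were required, 1 was higher. Nos3, the endothelial nitric oxide synthase, rose, at 0.90, 0.30, 0.89 and 0.29, as did Tie1 (0.39 ± 0.04) and Pecam1 (0.17 ± 0.04), the call of Pecam1 being lost without array 1, without array 4 and without a dye term (adjusted p up to 0.11). The falls were Thbd (-0.96 ± 0.04) and Flt1 (-0.60 ± 0.07), while Vwf and Kdr, at -0.04 and 0.08, did not pass. The hepatocyte list had 2 of 13 higher and none lower, with Alb at -0.04, the muscle list 1 higher and 2 lower of 18, the blood cell list 0 higher and 1 lower of 10. Of 15 brown fat genes, 4 rose (Elovl3, Pdk4, Cox7a1 and Ppargc1a) and 1 fell, and Cidea (0.04), Prdm16 (0.05) and Dio2 (0.02) did not pass. The brown fat gene Ucp1 was on the array but had too few irbesartan values to be tested. Ratios give no level, so whether these markers were present at all is not shown.

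Compared in the same fit, irbesartan differed from pioglitazone at 2852 of 15555 features (18.3%), 1626 above and 1226 below (10.5% and 7.88%), and 176 at least 1.5-fold (1.13%). By gene, 10.7% were above pioglitazone and 8.06% below. Without a dye term 965 features passed, and 1565 passed with arrays scaled to a common spread. The labels do not say whether the drugs shared vehicle RNA, and dose is not given, so the values stand side by side without a statement on potency.

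Several PPAR-gamma targets were less raised by irbesartan than by pioglitazone: 12 of 25 were below and 3 above. Olr1 differed most, with 1.16, 1.36, 1.23 and 1.18 under irbesartan and 3.11, 3.64, 3.61 and 3.44 under pioglitazone, a difference of -2.22 ± 0.17 (adjusted p 1.76e-05, limma). No irbesartan value came near the pioglitazone values. Pdk4 stood at 0.86 under irbesartan and 2.05 under pioglitazone, a difference of -1.18 (95% interval -1.31 to -1.05), and Fabp5 at 0.85 under irbesartan and 1.47 under pioglitazone. Elovl3, at 2.52 under irbesartan and 2.64 under pioglitazone, had a difference of -0.13 with an interval of -0.30 to 0.04 (adjusted p 0.302). Gpd1 likewise did not pass, at 0.72 under irbesartan and 0.63 under pioglitazone, with an interval of 0.00 to 0.18. Krt23 (difference -1.33) and Fosl1, an AP-1 factor (-0.96), were also below pioglitazone.

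Several genes that fell lay nearer to 0 under irbesartan than under pioglitazone. Camp was at -1.45 under irbesartan and -3.16 under pioglitazone (difference 1.71 ± 0.17), and Ogn at -0.76 under irbesartan and -2.05 under pioglitazone (difference 1.29 ± 0.04). Collagens were above pioglitazone in 13 of 23 cases and below in none, other matrix genes in 18 of 38 and none, and fibroblast markers in 10 of 16, with 2 below. Their medians were -0.19, -0.17 and -0.40 under irbesartan, against -0.33, -0.30 and -0.78 under pioglitazone. The fibroblast medians cover 19 genes under irbesartan and 16 under pioglitazone, and over those 16 the median difference was 0.27. Pparg stood at -0.54 under irbesartan and -1.09 under pioglitazone (difference 0.55 ± 0.04). Thrsp had -0.33 under irbesartan and -1.49 under pioglitazone, a difference of 1.16 ± 0.04 with no overlap between arrays. Retn, at 0.09 under irbesartan, was at -0.62 under pioglitazone, with arrays from -0.67 to -0.55 there (difference 0.71 ± 0.03). Other falls were deeper under irbesartan: Klf4 was at -0.51 under irbesartan and -0.09 under pioglitazone, and Klf3 at -0.81 under irbesartan and -0.45 under pioglitazone. Cxcl10 lay on opposite sides of 0, at -0.73 under irbesartan and 0.39 under pioglitazone, where it had values on 3 arrays. Cell cycle genes were below pioglitazone in 19 of 42 cases and above in 1. In glycolysis 7 of 18 were above pioglitazone and 2 below, with medians of 0.19 under irbesartan and 0.00 under pioglitazone. Of the genes of branched-chain amino acid breakdown 9 of 16 were above pioglitazone and 1 below, with medians of 0.04 under irbesartan and -0.20 under pioglitazone.

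Irbesartan differed from telmisartan at 1546 of 15025 features (10.3%), 707 above and 839 below (4.71% and 5.58%), and 23 at least 1.5-fold (0.153%). By gene, 4.78% were above telmisartan and 5.72% below. This comparison depended most on the fit: 246 features passed without a dye term and 2417 with a dye term for each drug.

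The interferon list held the largest differences past the threshold between the blockers. Of 30 genes, 14 were below telmisartan and none above, with medians of -0.17 under irbesartan and 0.04 under telmisartan. Ifit3 had -0.78, -0.95, -0.80 and -0.69 under irbesartan and 0.42, 0.60, 0.32 and 0.30 under telmisartan, a difference of -1.21 ± 0.08 (adjusted p 3.98e-05, limma). The drugs lay on opposite sides of 0 on every array. Isg15 averaged -0.26 under irbesartan and 0.92 under telmisartan (difference -1.18 ± 0.07), and with the drug in channel 1 its values were 0.16 and 0.17 under irbesartan and 1.13 and 1.20 under telmisartan. Rtp4, which helps receptors to the cell surface and is induced by interferon, was at -0.27 under irbesartan and 0.70 under telmisartan, Trim30a at -0.41 under irbesartan and 0.52 under telmisartan, and Mx2, an antiviral GTPase, at -0.18 under irbesartan and 0.70 under telmisartan. Under pioglitazone Ifit3 averaged -0.80 and its difference from irbesartan was 0.00 (95% interval -0.18 to 0.18). The differences of Ifit3, Isg15, Rtp4, Trim30a and Mx2 passed without a dye term as well.

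**Figure D4:**
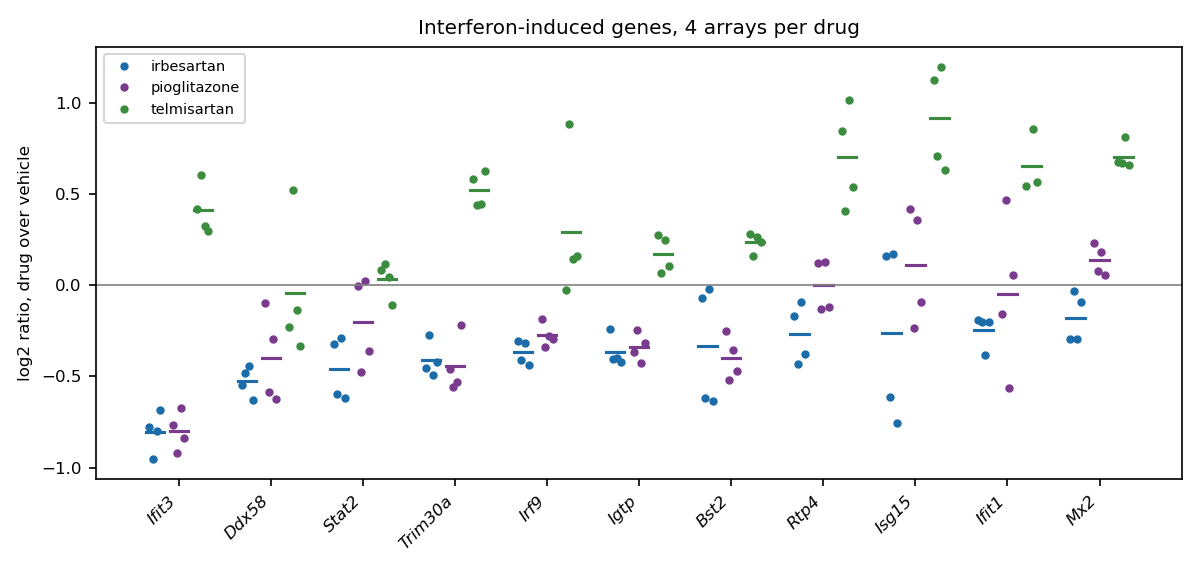
Interferon-induced genes on the x axis, with the log2 ratio of drug over vehicle on the y axis, a point for each of 4 arrays per drug and a bar at the mean, for irbesartan, pioglitazone and telmisartan. Ifit3 is at -0.95 to -0.69 under irbesartan and at 0.30 to 0.60 under telmisartan.

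Other genes separated the blockers too. Thrsp stood at -0.33 under irbesartan and -1.02 under telmisartan (difference 0.69 ± 0.04), and Retn at 0.09 under irbesartan and -0.34 under telmisartan (difference 0.43 ± 0.03). Mgll had 0.42 under irbesartan and -0.11 under telmisartan (difference 0.53 ± 0.04), with no overlap between arrays. Olr1 averaged 1.23 under irbesartan and 0.49 under telmisartan (difference 0.75 ± 0.16), and Ppargc1a 0.28 under irbesartan and -0.13 under telmisartan (difference 0.40 ± 0.05). Hmox1, the haem-degrading stress enzyme, had 0.31 under irbesartan and 0.97 under telmisartan (difference -0.66 ± 0.04), and Acsl4, which activates arachidonic acid, 0.34 under irbesartan and 0.86 under telmisartan. Of 25 PPAR-gamma targets 7 were above telmisartan and 1 below, and of 22 genes of fatty acid oxidation 6 were above and 2 below. Of 23 chaperones of the endoplasmic reticulum 8 were below telmisartan and none above.

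For many of the larger changes no difference between the blockers was detected. Aqp7 was at 0.88 under both, with a difference of 0.00 and an interval of -0.08 to 0.08. Dcn stood at -1.17 under irbesartan and -1.22 under telmisartan (interval of the difference -0.07 to 0.18), and Pdgfra at -0.86 under irbesartan and -0.81 under telmisartan (-0.15 to 0.05). Hmgcs1, at 0.60 under irbesartan and 0.64 under telmisartan, had an interval of -0.12 to 0.04. The fibroblast markers had a median of -0.40 over 19 genes under irbesartan and -0.53 over 17 under telmisartan. Over those 17 genes the median difference was -0.01. Of 34 complex I genes 2 were above telmisartan and none below.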

How the data were processed

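The deposited table held log10 ratios of the channels of 12 two-colour Agilent mouse arrays, as inferred from values that are symmetric around 0 and end at -2 and 2. The authors' background correction, dye normalisation and reasons for empty spots are not given in the sources used here, and no intensities were used, which leaves signal over background unknown; the number of arrays limits the precision. Array medians lay within 0.0026 of 0 on the log10 scale, and the arrays were kept as deposited. The deposited log10 ratios were turned to log2 and to drug over vehicle by the channel labels. Genes came from the platform annotation: 18218 of 22393 spots had 1 symbol (18175 updated through Entrez ID, 43 kept), 16 had several and 4159 none. The 48 sets of 10 to 11 repeat spots were averaged.

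One limma 3.58.1 fit (R 4.3.3) of the 12 arrays held a coefficient per drug and a shared dye term. A feature needed values on 3 or more of the 4 irbesartan arrays and was tested against 0, and against another drug where that drug also had 3. P-values were adjusted by Benjamini and Hochberg's method over all such features, two-sided, with a threshold of 0.05. Errors are standard errors and intervals 95% intervals of that fit. A gene with several spots is given by the spot with the smallest p under irbesartan. The members and the 45 gene lists were chosen with earlier results of these data known. Genes named are the 15 largest rises and falls with 1 sign on 4 arrays, up to 6 called members of each list and 12 chosen by name. Also named are the 6 largest differences each way from each other drug, past the threshold and with no overlap between arrays. Further list members are named as examples, chosen after their values were seen. The fit was tested on simulated data. No pairing by array number was used. Same-numbered arrays of the drugs shared their channel order, and whether they shared more was not settled. Promoter windows were found for 12288 of 15319 genes.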

Additional observations from a re-analysis of the deposited data

Results flagged for a closer look

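Among 266 named genes with 4 irbesartan values, 9 had an array far from the other 3 by Dixon's criterion at its 95% critical value, and chance alone gives about 1 in 20. The lowest array stood apart for Ndufb3, of complex I (0.3354), Pdk2, a pyruvate dehydrogenase kinase (0.05548), Pik3cb, a PI3-kinase subunit (0.2231), and Ifit1, an antiviral protein (-0.3804). The highest stood apart for Mogat1 (1.205), Col2a1, a cartilage collagen (-0.4136), Timp1, an inhibitor of matrix proteases (-0.2792), Igtp, an interferon-induced GTPase (-0.2412), and Actn2, an actin-binding protein (0.4541).

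The differences between drugs listed next are the largest among genes past the threshold whose array values did not overlap between the drugs compared. Those of irbesartan from pioglitazone, tested in the fit, were upwards for Camp (1.709), Phkg1, a phosphorylase kinase subunit (1.352), Ogn (1.293), Lars2, a mitochondrial tRNA synthetase (1.198), Mrc2, a collagen receptor (1.18), and Thrsp (1.162). Lars2 had the ratio shared by several genes on irbesartan arrays 1 and 3. They were downwards for Olr1 (-2.218), Krt23 (-1.333), Pdk4 (-1.182), Cxcl10 (-1.049, with a value on 3 pioglitazone arrays), Zbtb7a, a zinc finger repressor (-0.9663), and Fosl1 (-0.9622).

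Against telmisartan, under the same rule, the upward differences were those of Olr1 (0.7467), Thrsp (0.6877), Tlcd3b (0.6306), Yap1, a Hippo pathway coactivator (0.6128), Actn2 (0.6058) and Spryd3 (0.5784). Ms4a4d also passed, with a difference of 0.7221, but its array values overlapped between the drugs and it was left out. Yap1 averaged 0.09 under irbesartan and did not pass there, with -0.88 under pioglitazone and -0.53 under telmisartan. The downward differences were all in interferon-induced genes: Ifit3 (-1.214), Isg15 (-1.176), Rtp4 (-0.9695), Ifit1 (-0.9374), Trim30a (-0.9344) and Mx2 (-0.8834).

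Of 3425 features without a gene symbol, 497 passed an adjusted p of 0.05 in a fit that included them, 23 of them at least 1.5-fold.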

How the results depend on the processing

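Channel order mattered most for the counts. For irbesartan over vehicle, 4959 features passed, against 3140 without a dye term and 2442 with the 4 irbesartan arrays alone and no dye term; leaving out 1 irbesartan array at a time gave 4021 to 4265. For irbesartan minus pioglitazone, 2852 passed, against 965 without a dye term and 1565 with arrays scaled to a common spread, and 2007 to 2348 with 1 array left out. For irbesartan minus telmisartan, 1546 passed, against 246 without a dye term and 2417 with a dye term per drug. With 1 array left out it was 986 to 1900. The count was 1008 without irbesartan array 1, 986 without irbesartan array 4, 991 without telmisartan array 3 and 1900 without telmisartan array 2. Telmisartan array 2 correlated at 0.587 with telmisartan array 4, of the same channel order. Other such pairs within a drug correlated at 0.711 to 0.913. With the array number as a replicate block, 4570, 2292 and 1030 features passed in the 3 comparisons. Once channel order was taken out, deviations of same-numbered arrays of different drugs correlated at -0.34 to 0.09. The dye term was shared by the drugs, which by itself pushes these correlations down, so they cannot exclude a pairing. With the other channel above the ratio, the counts stay and higher and lower swap, so single genes were not refitted.

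Of the values of single genes, and of their differences between drugs, under these alternatives, 5108 kept their direction and side of the threshold, 155 lost their call, 4 gained one and 2 turned sign, both in genes that did not pass: Mrc2 (0.06118 without irbesartan array 1, and from -0.1144 to 0.06118 with any 1 left out) and Agtr1a (-0.01783 without irbesartan array 3, and from -0.01783 to 0.03122). Counted by gene, 52 of the 259 named genes past the threshold under irbesartan lost their call in 1 or more of up to 18 alternatives. Of all 267 named genes, 210 were the same in every alternative. Of 45 gene lists, the 27 with a median of at least 0.1 from 0 kept its sign in every alternative run. Without intensities, how close a spot lay to background is unknown.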

Other observations

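Genes that answer oxidative stress split, with 11 of 33 higher and 13 lower under irbesartan. The glutathione transferases Gstm1 and Gstm2 averaged -0.67 ± 0.04 and -0.64 ± 0.05, Gclm, a subunit of the enzyme that starts glutathione synthesis, -0.46 and Nqo1, a quinone reductase, -0.42. Hmox1 and the mitochondrial superoxide dismutase Sod2 were higher, both at 0.31. In the fit of the 4 arrays alone without a dye term, 4 were higher and 7 lower. Of 26 cytochromes P450, sulfotransferases and related enzymes, 8 fell and 2 rose: Cyp1b1, a steroid and retinoid hydroxylase, had ratios of -1.19, -0.69, -1.09 and -0.71, and Aldh1a1, a retinaldehyde dehydrogenase, rose by 0.40; without array 2, or without a dye term, 5 fell.

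Among 17 glucocorticoid-responsive genes, 4 rose (2 in the fit of the 4 arrays alone without a dye term) and 6 fell, with Errfi1, an inhibitor of the EGF receptor, at -0.68 and Sgk1, a kinase of salt transport, at -0.44. The clock list had 1 of 18 higher, Cry1 (0.20), and 7 lower, none beyond -0.22 (Bhlhe40). Cry1 lost its call when any single irbesartan array was left out and without a dye term (adjusted p up to 0.184), and the 7 lower genes became 3 without a dye term and 4 without array 2 or array 4. Of 15 heat shock genes 6 were higher and 1 lower, with a median of 0.11. Hspa4, counted as higher at 0.20, had another spot that was lower, at -0.14 (adjusted p 0.033, limma), and a further spot at -0.02. Hspd1 and Hspe1, the chaperonin pair of the mitochondrial matrix, rose by 0.50 and 0.45. Of 8 genes that thiazolidinediones lower in fat, 4 were lower and 1, Retn, higher. Of 5 pyruvate dehydrogenase kinases and phosphatases, 4 were higher and 1, Pdp1 (-0.31), lower. Pdk4 (0.86) was the only 1 of the 4 higher in the fit of the 4 arrays alone without a dye term, and Pdk3 (0.14) lost its call in 6 alternatives (adjusted p up to 0.193). Of 4 tRNA synthetases 2 were higher.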
